A study of Mus musculus with 3 samples.

Results

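The genes described here encode the sensors with which cells recognise microbial and misplaced nucleic acids, cell wall parts and proteins, together with the adaptors that carry their signals. They were taken by name from a table of read counts for 17857 genes. The rule took the toll-like receptors (TLRs), the NOD-like receptors named Nod, Nlrc, Nlrp and Nlrx (1 NLRC gene left out), the NAIPs, the RIG-I-like receptors, the sensors Aim2 and Zbp1, and the adaptors Myd88, Ticam1, Ticam2, Mavs, Tmem173 (STING) and Pycard (ASC). It found 48 genes by name alone, with no measured value in the rule. Mb21d1, which encodes the DNA sensor cGAS, was not analysed here.

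TLRs are membrane receptors that span the cell surface or the endosome, and all but Tlr3 can signal through the adaptor MyD88. RIG-I-like receptors bind viral RNA in the cytosol and act through MAVS, while cytosolic DNA is read by cGAS through STING and by AIM2 through an inflammasome, a complex that activates caspase-1. NOD-like receptors read bacterial parts or cell damage in the cytosol, and several of them form inflammasomes with the adaptor ASC. Myeloid cells and B cells are best known for TLRs, whereas sensors of cytosolic nucleic acids are used by most cell types.

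The cells came from lymph nodes draining B16F10 melanomas, implanted on both sides in the thigh of C57BL/6J mice and left untreated for 14 days. Cells negative for CD11c and positive for Ly6C and c-kit, called precursors in the labels, were sorted from pooled nodes, and 8 ng of total RNA went into a library. The 3 libraries of this single population are numbered replicates 1, 2 and 3. The labels give no control group and no sign of whether the libraries came from separate mice, and age and mice per pool are not given in the sources used here. Each test below sets a level against a fixed reference, and its p-value covers no more than the scatter among these 3 libraries, which may be technical.

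The libraries held between 9077195 and 13885509 counts, and the sensor and adaptor genes took 10424, 18713 and 14149 of them in replicates 1, 2 and 3. Kit, the gene of the required c-kit, was read at 9.83, 5.35 and 5.92 CPM (counts scaled to library size), while Cd34 was read at 1.06, 0 and 0.152 CPM. Of 8 stem and progenitor cell markers, 3 lay above 1 CPM (beside 68.6% of all genes), namely Kit, Meis1 and Myb, and Myb was read at 75.3, 172 and 102 CPM. Against 5 CPM per kilobase of gene length, 5 of the 8 lay below (beside 16.8% of all genes), with Kit among them at 1.36. Only Myb lay above that reference (beside 44.6% of all genes). T cell markers were high in all 3 libraries, with a sum over 10 genes of 3719, 4872 and 4760 CPM, and all 10 genes lay above 50 CPM. The libraries differed in their other cells. Summed CPM of 10 macrophage markers was 1361, 110 and 274, that of 10 neutrophil markers 221, 95.2 and 963, and that of 8 natural killer (NK) cell markers 102, 700 and 289. The widest gap was in 8 erythroid markers, which summed to 4292, 65.6 and 311 CPM and were all highest in replicate 1 (45.2% of all genes tested were). Mitochondrial genes took 17.8%, 6.22% and 13.1% of the counts. The sort required c-kit, and which cells these markers came from, those of T cells included, was not tested. In such bulk samples, fewer cells of a type and less RNA per cell cannot be told apart.

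Per kilobase of gene, Zbp1, Tmem173, Ddx58, Myd88, Nlrc3, Nod1, Tlr1, Aim2 and Pycard were read at the highest levels, in this order. Tlr7, Ifih1, Mavs and Dhx58 came next, and the NLRP genes of germ cells lay near the background. Of the 48 genes, 47 had at least 10 counts in sum and were tested. In edgeR's quasi-likelihood test, with Benjamini-Hochberg adjusted p-values across 15490 tested genes, 33 lay above 1 CPM (adjusted p under 0.05). That is 70.2% of them, beside 68.6% of all genes. Above 50 CPM lay 5, namely Ddx58, Nlrc3, Nod1, Zbp1 and Tmem173 (10.6%, beside 19.9% of all genes), and 36 lay below it (76.6%, beside 66.7%; 22 without replicate 3).

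CPM favours long genes, so levels were compared between genes as CPM per kilobase of the deposited gene length. The median over the 48 genes was 2.79 CPM per kilobase, beside 5.50 over all genes tested. Against a reference of 5 CPM per kilobase, 13 genes lay above (27.7%, beside 44.6% of all genes) and 16 below (34.0%, beside 16.8%). The 13 higher calls held in each of the 11 alternative analyses. The lower calls were less firm, since without replicate 3 a single gene remained of the 16, and limma called 28.

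**Figure D1:**
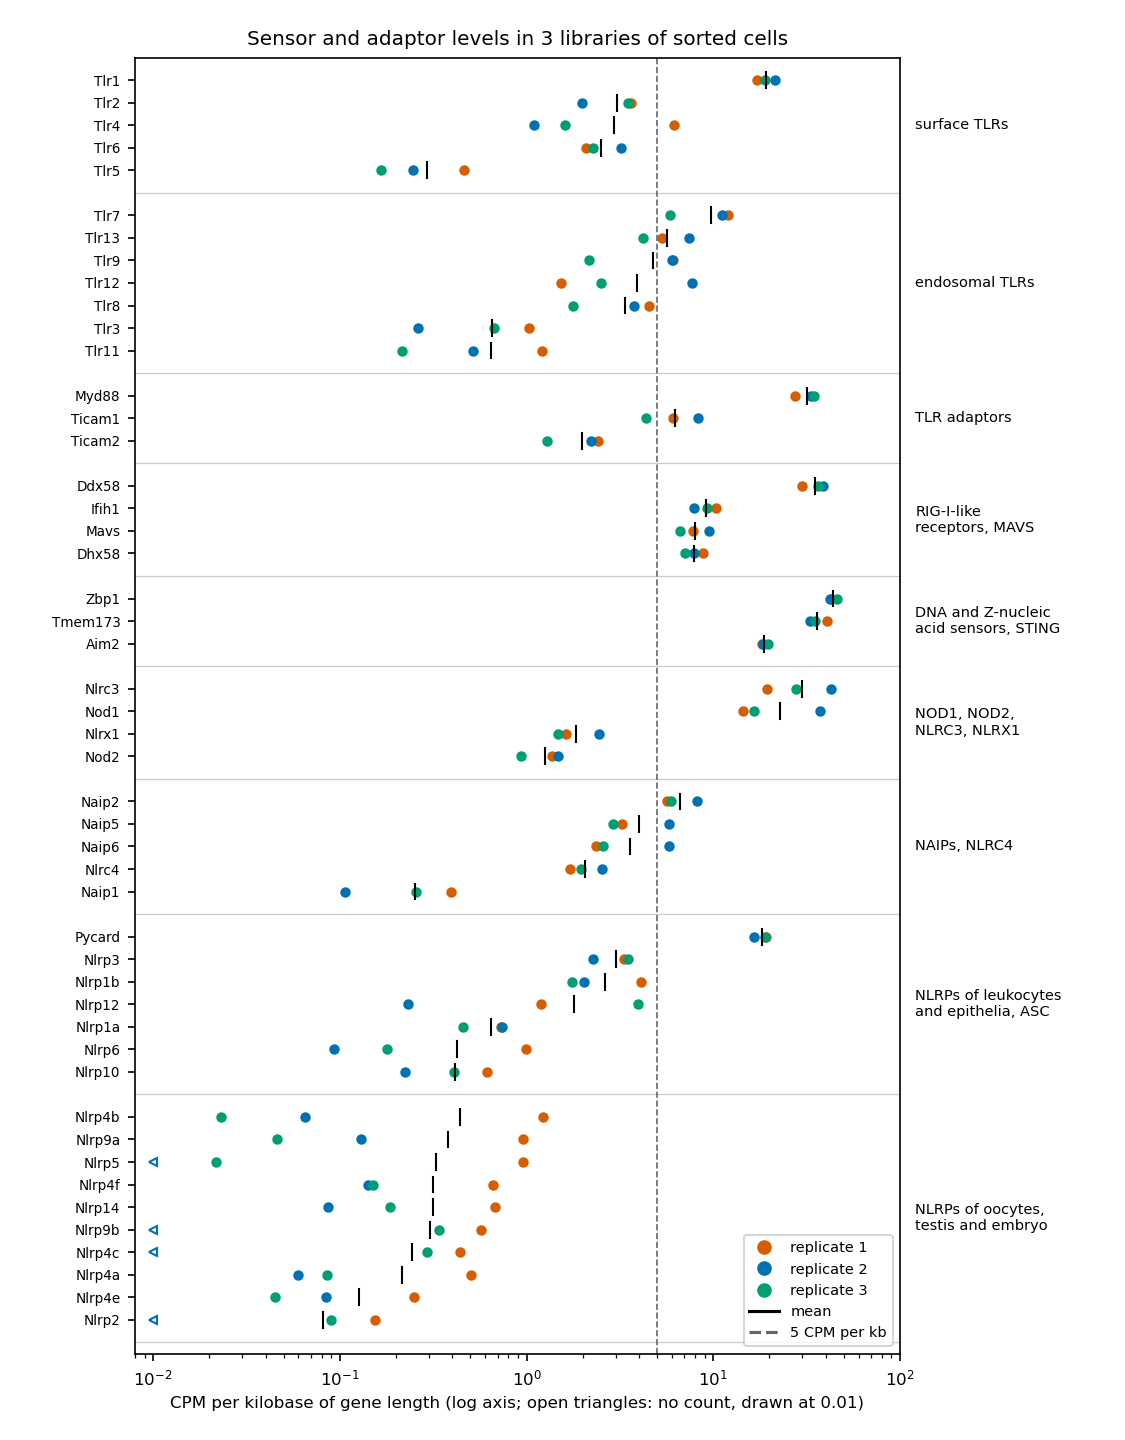
Level of each of the 48 genes in CPM per kilobase (horizontal log axis), grouped by role; points are the 3 libraries, black bars their mean, the dashed line 5 CPM per kilobase, and open triangles libraries with no count, drawn at 0.01. Zbp1, Tmem173, Ddx58 and Myd88 lie farthest to the right with their 3 points close together. In the lowest block all 10 genes have their highest point in replicate 1, as do 45.2% of all genes tested.

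Zbp1, Tmem173 and Aim2, which serve the sensing of nucleic acids in the cytosol, were high and even. Zbp1, a sensor of left-handed nucleic acid helices, was read at 92.5, 90.9 and 99.6 CPM (here and below in the order of replicates 1, 2 and 3), and its level per length was the highest of the 48 genes, 43.6 ± 2.14 CPM per kilobase (SD, n = 3). It lay above 50 CPM (edgeR adjusted p = 4.66e-04). Tmem173, the gene of STING, was read at 93.0, 75.6 and 80.3 CPM, or 36.0 ± 3.91 CPM per kilobase, and also lay above 50 CPM (edgeR adjusted p = 0.00161). Aim2, the DNA sensor of an inflammasome, was read at 46.1, 47.1 and 50.1 CPM and was not separated from 50 CPM. Zbp1 and Aim2 had the smallest coefficients of variation (CV, the SD as a share of the mean) among the 48 genes, 4.92% and 4.34%. In each library Zbp1 stood above Tmem173 and Tmem173 above Aim2 per kilobase.

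Of the RIG-I-like receptors, Ddx58 stood well above its relatives. Ddx58, which encodes RIG-I, was read at 148, 192 and 180 CPM, the highest level in CPM of the 48 genes, and lay above 50 CPM (edgeR adjusted p = 9.64e-06). Ifih1, which encodes MDA5, the sensor of long double-stranded RNA, was read at 57.3, 43.4 and 51.3 CPM. Dhx58, the gene of the regulatory relative LGP2, was read at 21.3, 19.1 and 16.9 CPM, and Mavs, the mitochondrial adaptor of the family, at 24.9, 30.2 and 21.3 CPM. Per kilobase Ddx58 stood at 35.04 ± 4.58, Ifih1 at 9.18 ± 1.27, Mavs at 7.98 ± 1.40 and Dhx58 at 7.93 ± 0.914 (SD, n = 3). The lowest library of Ddx58, at 29.9, lay above the highest of the other 3 genes, 10.4 in Ifih1, while Ifih1, Mavs and Dhx58 overlapped in range. All 4 genes lay above 5 CPM per kilobase (edgeR adjusted p = 6.53e-08 for Ddx58 and 0.00936 for Dhx58).

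The adaptors differed more than the libraries did. Myd88, the adaptor of most TLRs and of the interleukin 1 receptor family, was read at 52.0, 63.3 and 65.8 CPM. Ticam1, which encodes TRIF, the adaptor of TLR3 and of endosomal TLR4, was read at 17.1, 23.3 and 12.3 CPM. Ticam2, whose product TRAM links TLR4 to TRIF, was read at 7.93, 7.20 and 4.18 CPM. In each library the order was Myd88, Ticam1, Ticam2, with means of 31.7, 6.21 and 1.97 CPM per kilobase. Myd88 lay above 5 CPM per kilobase (edgeR adjusted p = 8.68e-08), Ticam1 was not separated from it (0.206), and Ticam2 lay below (0.0148, a call lost without replicate 3). Part of the Myd88 and Ticam2 counts is uncertain, since 11.3% of the exonic bases of Myd88 overlap Acaa1a on the opposite strand and 14.5% of those of Ticam2 overlap Tmed7 on the same strand. Acaa1a was read at 23.2 ± 1.98 and Tmed7 at 76.0 ± 3.15 CPM (SD, n = 3).

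Promoter windows of these highly read genes are shown because some carry sites known for interferon-driven or leukocyte transcription. RefSeq's windows (GRCm38.p6, 250 bases before to 50 after the start site) were given for 40 of the 48 genes, all but Dhx58, Nlrp10, Nlrp14, Ticam2, Tlr4, Tlr7, Tmem173 and Zbp1. They were searched on both strands for the core of the interferon-stimulated response element (ISRE: GAAA, any 2 bases, GAAA), for a pair of kappaB sites (GGGA, then CT or AT, then TTCC) and for GAGGAAGT, a site of PU.1 and other ETS factors. The ISRE core was in windows of 6 of the 40 genes (15%, beside 3.99% of 27025 genes), the ETS site in 8 (20%, beside 3.69%) and a kappaB site in none (beside 0.281%). Of the 13 genes above 5 CPM per kilobase, 9 had a window, and 6 of these held a site. Among the other 35 genes, 31 had a window and 7 held a site. The share of all genes that held any of these sites was not computed. Zbp1 and Tmem173, the highest per kilobase, had no window, so no link between sites and level is drawn. The 6 windows follow, 5′ to 3′ on the strand of the gene, with the match in capitals. A match is a run of letters and was not tested as a binding site. The first 3 hold the ISRE core and lie on the minus strand, at chr4:40239776-40240075 (Ddx58), chr2:62646206-62646505 (Ifih1) and chr9:119339969-119340268 (Myd88).
Ddx58: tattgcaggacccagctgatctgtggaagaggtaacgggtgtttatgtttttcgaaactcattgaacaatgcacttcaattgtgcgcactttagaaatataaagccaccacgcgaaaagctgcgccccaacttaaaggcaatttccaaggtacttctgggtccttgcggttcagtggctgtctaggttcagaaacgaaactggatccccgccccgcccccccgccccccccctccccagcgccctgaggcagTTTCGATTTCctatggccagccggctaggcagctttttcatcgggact
Ifih1: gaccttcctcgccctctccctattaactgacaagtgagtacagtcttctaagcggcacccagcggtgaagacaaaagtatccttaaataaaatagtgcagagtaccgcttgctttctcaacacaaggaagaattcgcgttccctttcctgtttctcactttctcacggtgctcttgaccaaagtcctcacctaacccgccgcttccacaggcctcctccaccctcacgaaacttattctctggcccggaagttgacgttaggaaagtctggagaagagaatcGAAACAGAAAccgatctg
Myd88: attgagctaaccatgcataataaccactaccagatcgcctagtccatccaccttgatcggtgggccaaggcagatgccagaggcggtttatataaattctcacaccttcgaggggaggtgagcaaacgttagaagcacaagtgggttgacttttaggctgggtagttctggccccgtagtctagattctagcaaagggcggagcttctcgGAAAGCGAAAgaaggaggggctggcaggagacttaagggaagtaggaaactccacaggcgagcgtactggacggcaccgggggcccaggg
The other 3 hold the ETS site and lie at chr1:173420354-173420653 on the plus strand (Aim2) and, on the minus strand, at chr7:127993818-127994117 (Pycard) and chr5:64933509-64933808 (Tlr1).
Aim2: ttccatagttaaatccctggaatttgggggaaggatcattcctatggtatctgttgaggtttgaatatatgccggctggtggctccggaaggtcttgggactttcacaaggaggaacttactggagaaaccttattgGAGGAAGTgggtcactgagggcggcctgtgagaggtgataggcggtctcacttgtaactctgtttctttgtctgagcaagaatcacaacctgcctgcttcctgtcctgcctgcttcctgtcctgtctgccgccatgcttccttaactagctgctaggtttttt
Pycard: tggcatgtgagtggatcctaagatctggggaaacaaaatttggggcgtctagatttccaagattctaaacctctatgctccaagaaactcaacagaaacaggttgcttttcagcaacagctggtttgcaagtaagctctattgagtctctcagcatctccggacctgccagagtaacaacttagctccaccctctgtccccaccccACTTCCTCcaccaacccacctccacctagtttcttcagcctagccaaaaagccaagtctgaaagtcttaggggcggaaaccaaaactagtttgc
Tlr1: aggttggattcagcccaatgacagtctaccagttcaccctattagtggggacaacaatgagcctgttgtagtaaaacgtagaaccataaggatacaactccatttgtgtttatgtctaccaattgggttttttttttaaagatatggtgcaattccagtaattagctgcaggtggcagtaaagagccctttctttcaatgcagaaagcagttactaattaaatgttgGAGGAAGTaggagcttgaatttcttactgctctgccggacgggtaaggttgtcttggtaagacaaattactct
The match began at position 3 from the start site in Ddx58, 33 in Ifih1 and -40 in Myd88, and at -113 in Aim2, -44 in Pycard and -23 in Tlr1. The remaining matches were in Nlrp5, Tlr6 and Tlr11 for the ISRE core and in Nlrp1a, Nlrp1b, Nlrp4c, Tlr9 and Tlr11 for the ETS site.

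Among the TLRs of the cell surface, Tlr1 was the highest. Tlr1, which reads bacterial lipopeptides as a pair with TLR2, was read at 44.3, 54.7 and 48.5 CPM, or 19.1 ± 2.04 CPM per kilobase (SD, n = 3), and lay above 5 CPM per kilobase (edgeR adjusted p = 1.15e-06). Its partner Tlr2 was read at 10.4, 5.63 and 10.03 CPM, and Tlr6, the other partner of TLR2, at 5.39, 8.34 and 5.92 CPM. In each library Tlr1 exceeded Tlr2 and Tlr6 per kilobase, and the ranges of Tlr2 and Tlr6 overlapped. Tlr5, the flagellin receptor, was read at 1.48, 0.785 and 0.532 CPM and was not separated from 1 CPM (edgeR adjusted p = 0.945).

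Tlr4, the receptor for bacterial lipopolysaccharide, was uneven. Its levels were 23.8, 4.21 and 6.15 CPM, so replicate 1 stood 4.59-fold above the mean of the others. Its counting intervals (95%, exact Poisson, counting error only) were 20.8 to 27.1, 3.20 to 5.43 and 4.88 to 7.65 CPM, and that of replicate 1 was clear of the others. Without replicate 1, Tlr4 lay below 5 CPM per kilobase (log2 difference -1.92, edgeR adjusted p = 0.0047), and with all 3 libraries it was not separated from that level (-0.77, 0.173; limma placed it below, -1.36, 0.00256). All 10 macrophage markers were highest in replicate 1, and their sum there was 7.10-fold the mean of the others. None of the 10 was at 0 in any library. Erythroid markers (22.8-fold, 8 of 8 genes), eosinophil markers (4.94-fold, 4 of 5), melanoma markers (5.10-fold, 6 of 6) and B cell markers (2.15-fold, 10 of 10) were also highest in replicate 1, as was the mitochondrial share. So were the sums of conventional dendritic cell markers (1.30-fold, 6 of 8) and of stroma and endothelium markers (1.19-fold, 7 of 9). Of all genes tested, 45.2% were highest in that library. In replicate 2, 1 erythroid, 1 eosinophil, 5 melanoma and 3 stroma and endothelium markers were at 0. The melanoma markers summed to only 9.19, 0.571 and 3.04 CPM, and none of the 6 lay above 1 CPM. The background read from olfactory receptor genes, given below, was itself 7.20-fold the mean of the others in replicate 1. The TLR4 coreceptor Cd14 was read at 8.14, 1.85 and 2.20 CPM and the lipid receptor Cd36 at 63.5, 6.49 and 15.9 CPM, both picked after their values were seen. Ly96, which encodes the lipopolysaccharide-binding partner MD-2, was read at 0.845, 0.785 and 0.456 CPM. Cd14 also stands in the monocyte list, which summed to 873, 1720 and 505 CPM. Of its 10 genes, 6 were highest in replicate 2 and 4 in replicate 1. The part of these cells and of RNA quality in the level of Tlr4 was not tested.

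Tlr1 and Tlr6 are neighbours on chromosome 5 that share sequence, and 15.4% of the distinct 50-base runs of Tlr1 transcripts in GENCODE M21 also occur in transcripts of other genes, mostly of Tlr6. The longest run of bases identical in both transcripts has 229 bases and lies in the coding sequence of each, at chr5:64925537-64925765 in Tlr1 and chr5:64953828-64954056 in Tlr6 (mm10, minus strand). It is shown because reads from it cannot be assigned to either gene.
Tlr1 and Tlr6: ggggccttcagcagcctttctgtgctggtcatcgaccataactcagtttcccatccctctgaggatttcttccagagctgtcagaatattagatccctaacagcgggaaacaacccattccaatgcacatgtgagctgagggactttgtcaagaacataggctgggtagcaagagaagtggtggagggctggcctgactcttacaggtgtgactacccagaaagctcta
How reads with several matches were treated is not given in the sources used here, so the split of counts between these genes is uncertain.

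Of the TLRs of endosomes, Tlr7 was the highest and the only one above 5 CPM per kilobase. Tlr7, a receptor for single-stranded RNA, was read at 45.1, 41.8 and 21.9 CPM, or 9.68 ± 3.36 CPM per kilobase (SD, n = 3; edgeR adjusted p = 0.00321). Tlr8, its neighbour on the X chromosome, was read at 14.4, 11.8 and 5.62 CPM. Tlr9, the receptor for unmethylated CpG DNA, was read at 21.0, 21.0 and 7.52 CPM. Replicate 3 was thus the lowest for all 3 genes, and its counting intervals lay below those of the other libraries (19.4 to 24.5 CPM for Tlr7, against 38.5 to 45.3 in replicate 2). Tlr13 and Tlr11 were also lowest in replicate 3, while Tlr3 and Tlr12 were not. The share of all genes tested that were lowest in replicate 3 was not computed, so this order has no comparison. Plasmacytoid dendritic cells and B cells are known for Tlr7 and Tlr9. The 10 plasmacytoid dendritic cell markers summed to 224, 270 and 158 CPM, with 7 of 10 highest in replicate 1 and 3 in replicate 2. Siglech of that list was read at 29.7, 23.2 and 6.30 CPM and Pacsin1 at 66.6, 68.0 and 68.0 CPM, both picked after their values were seen. The 10 B cell markers summed to 447, 175 and 241 CPM, with all 10 highest in replicate 1. Sums were also lowest in replicate 3 for monocytes (873, 1720 and 505 CPM) and conventional dendritic cells (79.6, 79.1 and 43.0 CPM), while the B cell sum was lowest in replicate 2. No marker of these lists was at 0 in any library, and their part in the levels of Tlr7, Tlr8 and Tlr9 was not tested.

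Tlr13 and Tlr12 were highest in replicate 2, as were 32.0% of all genes tested. Tlr13, which reads bacterial ribosomal RNA in mice, was read at 21.4, 29.7 and 16.9 CPM. Tlr12, a partner of TLR11 in sensing profilin of protozoa, was read at 4.86, 24.5 and 7.97 CPM. Replicate 2 stood 3.81-fold above the mean of the others for Tlr12, and its counting interval of 21.9 to 27.2 CPM was clear of 3.56 to 6.48 in replicate 1 and 6.52 to 9.65 in replicate 3. Tlr11 itself was read at 3.80, 1.64 and 0.684 CPM, highest in replicate 1, so these partner genes did not share their order over libraries. Of the 14 marker lists, 6 had their highest sum in replicate 2. They were those of CD8 T cells (26.8 to 947 CPM over the libraries, both genes highest there), NK cells (102 to 700, 8 of 8 genes), monocytes (505 to 1720, 6 of 10), stem and progenitor cells (98.0 to 181, 1 of 8), plasmacytoid dendritic cells (158 to 270, 3 of 10) and T cells (3719 to 4872, 6 of 10). In that library Cd34 and Mycn of the progenitor list were at 0, and no gene of the other 5 lists was at 0 in any library. Which of these cells held Tlr12 was not tested. Tlr3, the receptor for double-stranded RNA, was read at 4.44, 1.14 and 2.89 CPM. It lay above 1 CPM (edgeR adjusted p = 0.0251), but not without replicate 1 (0.155), without replicate 3 (0.167) or in limma (0.0816).

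Nod1 and Nlrc3 were read far above Nod2 and Nlrx1. Nod1, a sensor of peptidoglycan fragments that hold diaminopimelic acid, was read at 63.7, 164 and 73.4 CPM, and Nlrc3, an NLR described in T cells as a negative regulator, at 79.4, 173 and 113 CPM. Both lay above 50 CPM (edgeR adjusted p = 0.00533 for Nod1 and 5.59e-04 for Nlrc3) and above 5 CPM per kilobase. Nod2, the sensor of muramyl dipeptide known from myeloid cells, was read at 6.34, 6.85 and 4.33 CPM, and Nlrx1, a mitochondrial NLR, at 6.45, 9.77 and 5.85 CPM. Per kilobase the means were 29.9 for Nlrc3, 22.7 for Nod1, 1.85 for Nlrx1 and 1.26 for Nod2, and in each library the lower of Nlrc3 and Nod1 exceeded the higher of Nlrx1 and Nod2. All 4 genes were highest in replicate 2, which stood above the mean of the others 2.39-fold for Nod1, 1.80-fold for Nlrc3, 1.59-fold for Nlrx1 and 1.28-fold for Nod2. Of all genes tested, 32.0% were highest in that library. Among cell type markers, the highest sum was also in replicate 2 for T cells (1.15-fold the mean of the others, 6 of 10 genes), CD8 T cells (6.64-fold, both genes), NK cells (3.58-fold, 8 of 8) and monocytes (2.50-fold, 6 of 10), and for progenitors (1.69-fold, 1 of 8) and plasmacytoid dendritic cells (1.42-fold, 3 of 10). Their part in these levels was not tested. Part of the Nlrx1 count is uncertain, since 11.9% of its exonic bases overlap Gm10686 on the opposite strand.

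The NAIPs, which bind flagellin or parts of bacterial secretion systems and hand them to the NLRC4 inflammasome, were read at intermediate levels apart from Naip1. Naip2, which senses the rod protein of the secretion needle, was read at 27.4, 39.4 and 28.7 CPM. The flagellin sensors Naip5 and Naip6 were read at 17.2, 30.7 and 15.4 CPM and at 15.9, 38.9 and 17.2 CPM. Nlrc4 was read at 6.55, 9.70 and 7.52 CPM, and Naip1, a sensor of the needle protein, at 2.11, 0.571 and 1.37 CPM. Naip2, Naip5, Naip6 and Nlrc4 had their peak in replicate 2, as did 32.0% of all genes tested. Each of the 4 lay above 1 CPM, as did 68.6% of all genes (edgeR adjusted p = 6.09e-07 for Nlrc4). Naip1 was not separated from 1 CPM (0.720). In replicates 1, 2 and 3 Naip2 stood at 5.67, 8.18 and 5.95 CPM per kilobase against 1.71, 2.53 and 1.96 for Nlrc4.

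The 4 NAIP genes lie in the same region of chromosome 13 and share much sequence. Of their distinct 50-base runs, 31.5% in Naip1, 19.1% in Naip2, 36.9% in Naip5 and 21.5% in Naip6 also occur in transcripts of other genes. Among these is Naip3, which was not analysed here. The longest run identical in Naip5 and Naip6 has 229 bases and is coding in both, at chr13:100222161-100222389 and chr13:100299448-100299676 (mm10, minus strand). It is shown, as for Tlr1 and Tlr6, because it marks where counts of the paralogs cannot be parted.
Naip5 and Naip6: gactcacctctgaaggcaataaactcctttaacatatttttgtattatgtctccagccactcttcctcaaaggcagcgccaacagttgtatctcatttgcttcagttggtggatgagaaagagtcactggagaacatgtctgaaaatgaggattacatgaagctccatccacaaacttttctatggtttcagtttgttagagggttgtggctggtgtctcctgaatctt
The levels of single NAIPs are therefore uncertain.

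Pycard was read above the NLRP genes and near Aim2. Pycard, which encodes ASC, the adaptor of the NLRP3 and AIM2 inflammasomes, was read at 40.7, 35.1 and 40.5 CPM, or 18.1 ± 1.49 CPM per kilobase (SD, n = 3; edgeR adjusted p = 1.78e-06 against 5 CPM per kilobase). Nlrp3, the sensor of membrane damage and ion flux, was read at 13.3, 9.13 and 14.0 CPM. Nlrp1b was read at 25.3, 12.5 and 10.7 CPM, and its relative Nlrp1a at 3.49, 3.57 and 2.20 CPM. Nlrp6 and Nlrp10, known mainly from epithelia, were read at 3.80, 0.357 and 0.684 CPM and at 2.75, 0.998 and 1.82 CPM, and neither was separated from 1 CPM (edgeR adjusted p = 0.579 and 0.287). The mean of Pycard lay close to that of Aim2, 18.8 ± 0.815 CPM per kilobase. In each library Pycard exceeded every NLRP gene per kilobase, and Nlrp3 stood at 3.31, 2.27 and 3.48. Pycard overlaps Gm45205 on the opposite strand over 12.8% of its exonic bases.

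Nlrp12, an NLRP of granulocytes and monocytes, peaked in replicate 3. It was read at 5.18, 0.998 and 17.2 CPM, with counting intervals of 3.83 to 6.85, 0.546 to 1.67 and 15 to 19.6 CPM that did not meet. Replicate 3 stood 5.56-fold above the mean of the others. All 10 neutrophil markers were highest in that library, with a sum 6.09-fold the mean of the others, and Ly6g had counts in no other library (0, 0 and 2.51 CPM). Of all genes tested, 22.8% were highest in that library. Nlrp12 lay above 1 CPM (edgeR adjusted p = 2.11e-04), but not without replicate 3 (0.0936). Neutrophils were not aimed at by the sort, and their part in this level was not tested.

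The NLRP genes known from oocytes, testis and early embryos were near the background. The table held 10 of them, 9 on chromosome 7 and Nlrp4f on chromosome 13, and their means ran from 0.0815 CPM per kilobase in Nlrp2 to 0.438 in Nlrp4b. Of the 9 that could be tested, 0 lay above 1 CPM in edgeR, DESeq2 or limma, and 0 at an unadjusted p under 0.05 in edgeR. All 10 were highest in replicate 1, as were 45.2% of all genes tested. Nlrp5, an oocyte factor that early embryos need, had 32, 0 and 1 counts, and Nlrp4b 38, 3 and 1. The 569 olfactory receptor genes, which leukocytes rarely use, gave a background of 0.248, 0.0207 and 0.0482 CPM per kilobase, so replicate 1 stood 7.20-fold above the mean of the others. Summed CPM of the 10 NLRP genes was 21.8, 1.93 and 4.40, and replicate 1 stood 6.88-fold above the others. Of these 10 genes, 3 exceeded the olfactory receptor mean in every library, compared with all 38 others (83.7% of all genes tested did). The 95th percentile of the olfactory receptor genes was exceeded in every library by 32 of the 48 genes, and by none of the germ cell NLRPs, Naip1, Nlrp1a, Nlrp6, Nlrp10, Tlr5 and Tlr11. The share of all genes above that percentile was not computed, so this count has no comparison. The limit that a count of 0 allows is 3 counts, or 0.214 CPM in replicate 2, where Nlrp2, Nlrp4c, Nlrp5 and Nlrp9b had none.

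The 48 genes thus ranged from even to highly uneven. Their median CV was 39.5% over the 47 genes tested, beside 29.0% over all genes tested. Over the 33 genes above 1 CPM the median CV was 28.7%, and that of all genes above 1 CPM was not computed. A CV under 15% was found in 9 genes, Aim2, Zbp1, Pycard, Tlr1, Tmem173, Dhx58, Myd88, Ddx58 and Ifih1, all of which lay above 5 CPM per kilobase. Of all genes tested, 22.7% had such a CV, and of those above 5 CPM per kilobase 39.7%. Nod1, Nlrc3, Tlr7 and Mavs lay above 5 CPM per kilobase with CVs of 55.1%, 39.1%, 34.7% and 17.6%. An uneven gene was defined as one with a sum of at least 30 counts whose highest library was at least 3 times the mean of the others, and 11 of 44 were uneven (25%, beside 16.2% of all genes). They were Tlr4, Tlr11, Nlrp6 and 6 germ cell NLRPs with a peak in replicate 1, Tlr12 in replicate 2 and Nlrp12 in replicate 3.

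**Figure D2:**
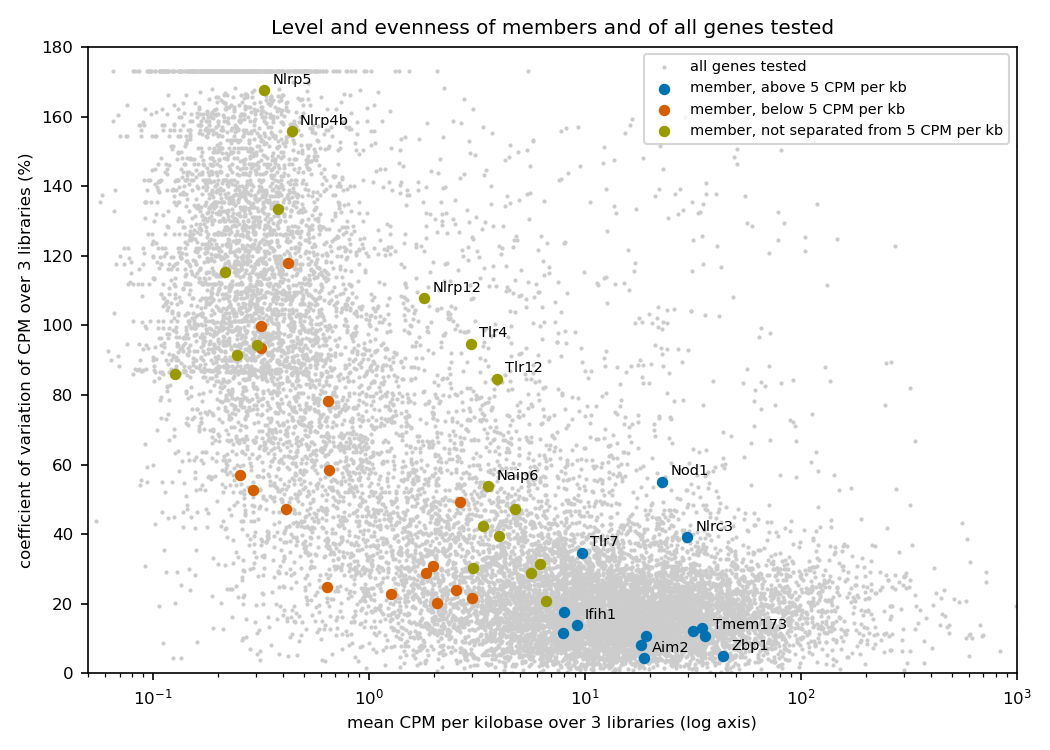
Mean level in CPM per kilobase (horizontal log axis) against the CV of CPM over the 3 libraries in percent (vertical axis); grey points are all 15490 genes tested and coloured points the 47 tested sensor and adaptor genes, by their call against 5 CPM per kilobase. Zbp1 and Aim2 lie at the bottom with CVs of 4.92% and 4.34%, and Tlr4, Tlr12 and Nlrp12 lie at 94.7%, 84.7% and 108%.

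**Figure D3:**
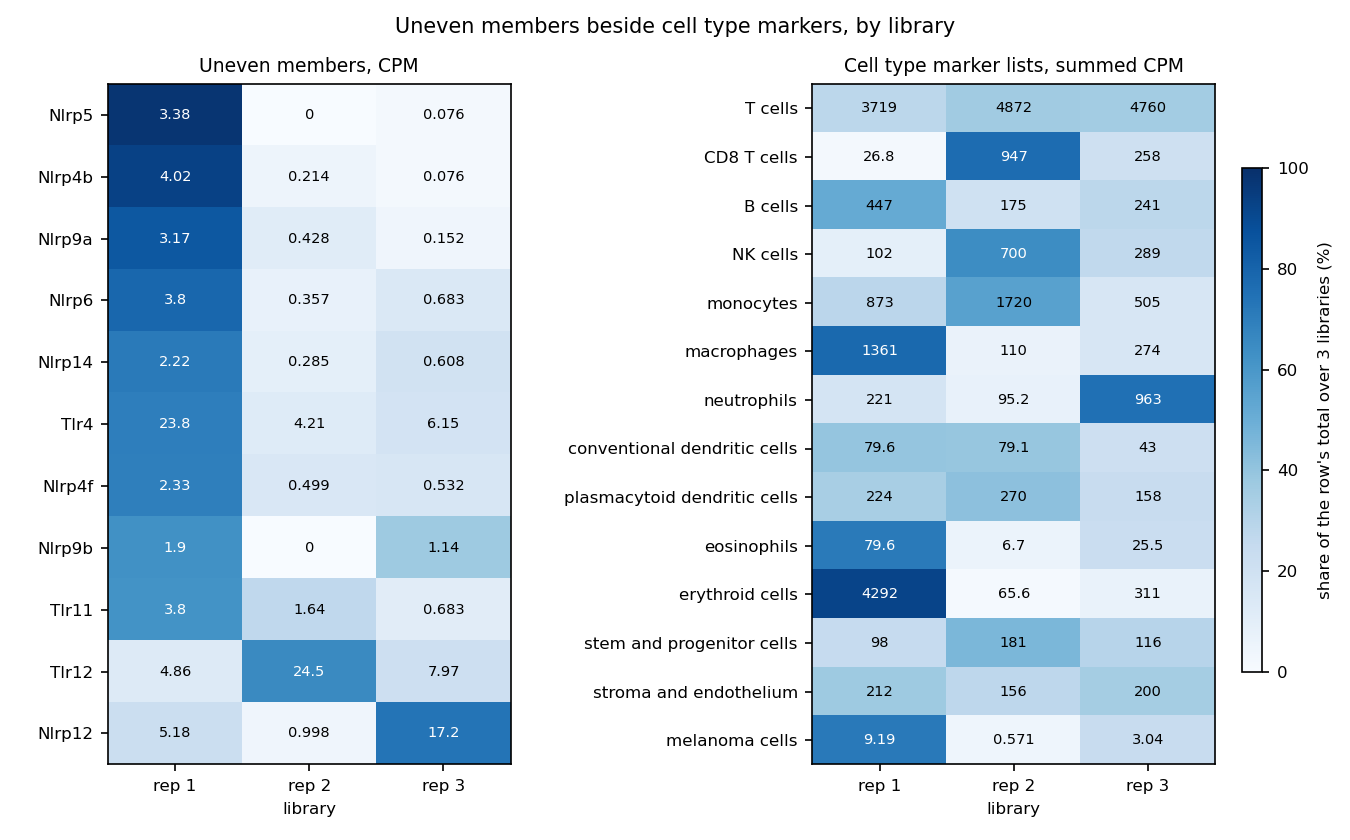
CPM of the 11 uneven genes (left) and summed CPM of cell type marker lists (right) in each library; numbers are CPM and the shade is the share of the row's total in percent. Tlr4 is darkest in replicate 1, as are the macrophage, erythroid, eosinophil, melanoma and B cell lists among others. Tlr12 is darkest in replicate 2, as are the CD8 T cell, NK cell and monocyte lists among others. Nlrp12 is darkest in replicate 3 with the neutrophil list.

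The partners of these receptors were measured in 6 lists. Their counts stand beside the 44.6% of all genes above 5 CPM per kilobase and the 16.8% below. Of 12 chaperones and coreceptors of TLRs, 7 lay above 5 CPM per kilobase and 2 below. Hsp90b1, the chaperone gp96 that folds TLRs, was the highest at 249 CPM per kilobase, followed by Unc93b1, which carries TLRs to endosomes, at 40.4. Ly96 (1.15) and Lbp (1.10), which serve the sensing of lipopolysaccharide, were the lowest. Unc93b1 was read at 133, 89.9 and 51.6 CPM, and its lowest library was replicate 3, as for Tlr7, Tlr8 and Tlr9. How many of all genes were lowest there was not computed.

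Of 13 genes of the relay from MyD88 to the kinase TAK1, 9 lay above 5 CPM per kilobase and 1 below. The ubiquitin ligase gene Peli1 (115 CPM per kilobase) and Tab2 (48.4), a partner of TAK1, were the highest, and Peli2 (0.563) and Peli3 (0.190) the lowest. The receptor-proximal kinase genes Irak1 and Irak4 stood at 23.6 and 17.4 CPM per kilobase. Of 8 inhibitors of TLR signalling, 5 lay above and 2 below. Tnip1 (64.8) and Tnfaip3 (22.8), which restrain NF-kappaB, were the highest, and Il1rl1 (0.818) and Sarm1 (0.450) the lowest.

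Of 11 regulators of RIG-I and MAVS, 9 lay above 5 CPM per kilobase and 2 below, with a median of 36.4. Zc3hav1, an antiviral zinc finger gene, stood at 100.3 CPM per kilobase and Ikbke, a kinase gene of the interferon response, at 83.7, while Tbkbp1 (2.54) and Rnf135 (2.38), a cofactor of RIG-I, were the lowest. Of 10 nucleases and regulators of nucleic acid sensing that were measured, 7 lay above and 0 below in edgeR. Samhd1, which degrades nucleotides, stood at 175 and Ifi203 at 65.9, and Rnaseh2b (6.52) and Enpp1 (5.33), which breaks down the cGAS product, were the lowest. Trex1, Pyhin1 and Mnda of that list were not analysed here.

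Of 10 inflammasome effectors and partners of the NOD receptors, 8 lay above 5 CPM per kilobase and 0 below. Txnip stood at 221 CPM per kilobase and Gsdmd, the pore former cut by caspase-1, at 41.1. Il18 (4.31) and Mefv (3.97), the gene of pyrin, were the lowest. Casp1 was read at 24.8, 13.1 and 20.8 CPM. Il1b, a substrate of caspase-1, was read at 23.6, 5.13 and 96.2 CPM, with its peak in replicate 3 like Nlrp12 and 22.8% of all genes tested. Which cells held Il1b was not tested. Ripk2, the kinase that NOD1 and NOD2 signal through, was even at 22.6, 20.7 and 20.4 CPM.

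**Figure D4:**
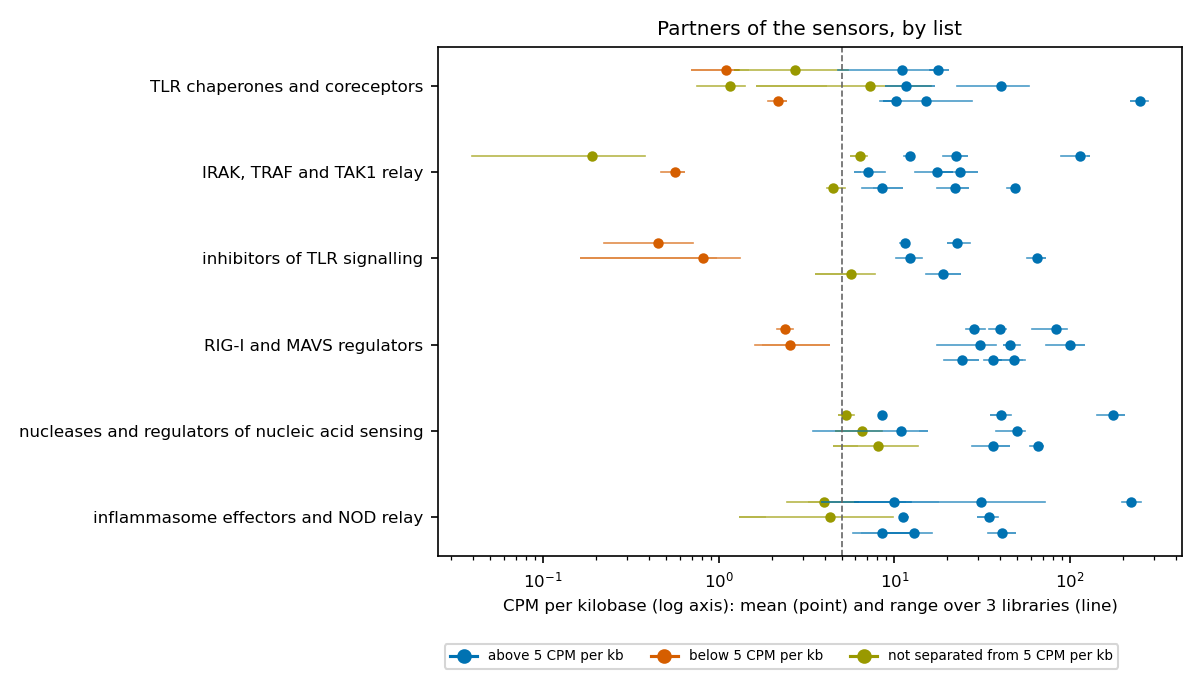
Genes of the 6 partner lists in CPM per kilobase (horizontal log axis); each point is the mean of a gene over 3 libraries, each line its range, and the colour its call against 5 CPM per kilobase (dashed). Most genes of each list lie to the right of the dashed line, with Hsp90b1 at 249 and Txnip at 221 the farthest.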

How the data were processed

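The authors deposited 1 table of whole-number read counts for 17857 genes, with a gene length in bases, in 3 libraries. Per the labels' protocols, these came from a stranded total RNA kit for low input. Per the submitters' processing notes, bcl2fastq, STAR 2.75, featureCounts and DESeq2 1.18.1 were used with mm10; the annotation, the strand setting and the treatment of reads with several matches are not given in the sources used here.

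CPM used edgeR 4.0.16 TMM factors (1.04, 1.01 and 0.950). Genes with at least 10 counts in sum were tested against 1 CPM, 50 CPM and 5 CPM per kilobase. Since glmQLFTest needs more than an intercept, its F statistic was computed from the fit with the reference as null mean, two-sided, and checked on simulated data. That simulation was changed once: null genes first had the spread of genes drawn at random, which gave more false calls at 50 CPM and at 5 CPM per kilobase, and then that of genes near each reference. Alternatives were DESeq2 1.42.0, limma 3.58.1, other scalings and filters, and leaving out each library. Every gene of the set is accounted for by role. Partner genes were named by rule, the 2 highest and 2 lowest of each list per kilobase, and Irak1, Irak4, Casp1, Il1b, Ripk2, Cd14 and Cd36 after their values were seen. The genes and lists were chosen with earlier results of these data known. The promoter windows shown, the CV limit of 15% and the searches for shared sequence and overlapping exons were chosen after the levels were seen. Coordinates are those of RefSeq (GRCm38.p6) and GENCODE M21, both for the assembly that mm10 represents. Counting intervals cover counting error only.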

Additional observations from a re-analysis of the deposited data

How the results depend on the processing

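Across 11 alternatives, 31 of the 33 calls above 1 CPM, all 5 above 50 CPM and all 13 above 5 CPM per kilobase were kept, the exceptions being Tlr3 and Nlrp12. Calls below a reference were less stable, and the cause was not tested unless fewer genes or samples entered. Below 50 CPM lay 36 sensor and adaptor genes and 10336 of all genes, but 23 and 6143 with edgeR's own expression filter, which tested 34 and 11035, and 22 to 37 and 5513 to 10588 when each library was left out. Below 5 CPM per kilobase lay 16 and 2604, but 28 and 6487 in limma, 24 and 5904 in DESeq2, and 1 to 18 and 575 to 3412 when each library was left out, lowest without replicate 3 in each case. The set of 11 uneven genes was the same under DESeq2's size factors and with total counts. No paired analysis was possible because the labels give a single group. No call below 1 CPM was made for any gene (0 at an unadjusted p under 0.05 in edgeR, 0 in DESeq2 and limma); the cause was not tested. Libraries of 9077195 to 13885509 counts set the limit of a count of 0 at 0.214 to 0.317 CPM.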
